A study of Mus musculus with 4 samples.

Results

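The genes described here encode the machinery of apoptosis, necroptosis and pyroptosis: 37 genes of the BCL2 family, the caspases, the apoptosome, the inhibitor of apoptosis proteins (IAPs), the death receptors, the necroptosis kinases and the pore former of pyroptosis. They were taken by gene symbol from the 56748 rows of the deposited table, and each symbol occurred once. Bulk RNA sequencing measured lung tissue from 7-week-old (at injection) female BALB/cJ mice that received 4T1-FLuc cells, a luciferase-marked mouse triple-negative breast cancer (TNBC) line, through the tail vein. The saline group (2 libraries) is named PBS control in another label, and the cmLumiOpto/PARPi group (2 libraries, called treated below) was harvested after 3 weeks of treatment. These mice received cmLumiOpto, a light-gated channel for the inner mitochondrial membrane with its own luciferase under a cfos promoter, carried by an AAV in exosomes with a CD276 antibody. They were also given ViviRen, the substrate of that luciferase, and oral olaparib (50 mg/kg), which inhibits PARP enzymes of DNA repair. The study names lung tissue with metastases as the material, while the labels name tumour cells harvested from the lung. With no library of either agent alone, the effects of cmLumiOpto and olaparib cannot be told apart.

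Apoptosis has a mitochondrial and a receptor branch. In the first, BH3-only proteins neutralise BCL2-type guardians or activate BAX and BAK, which open the outer mitochondrial membrane and release cytochrome c, so that APAF1 forms the apoptosome and activates caspase-9. In the second, death receptors such as FAS activate caspase-8 through FADD, a step that CFLAR (c-FLIP) restrains. Where caspase-8 is blocked, RIPK1 and RIPK3 can activate MLKL and lyse the cell by necroptosis, and caspase-1 or caspase-4 (caspase-11 in mouse) cleaves gasdermin D to lyse it by pyroptosis. The proteins are regulated largely by cleavage, binding and release, none of which is seen in RNA counts.

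Gene counts summed to 15263375 to 16755228 per library, so that 3 counts, taken as the limit of detection (counting error only), corresponded to 0.173 to 0.204 CPM, a gene's count scaled to the TMM-adjusted total of its library. Epithelial markers listed for the tumour (7 of 7 measured, Krt8 and Epcam among them) summed to 3477 and 3748 CPM in saline and 3159 and 4220 CPM after treatment. How much of these sums came from lung epithelium was not tested, so they do not measure tumour content. Some lung and stromal marker lists differed between the groups. The 7 alveolar type 2 markers summed to 1665 and 443 CPM in saline and 8072 and 2880 CPM after treatment. Abca3 among them was lower after treatment (log2 fold change -0.33). The 5 club cell markers summed to 1151 and 82.3 CPM against 5694 and 3181 CPM. The 7 fibroblast markers summed to 5167 and 3583 CPM against 1682 and 1891 CPM. Sums of alveolar type 1, ciliated and B cell markers were also higher in both treated libraries. The endothelial sums overlapped (476 and 372 CPM against 689 and 370 CPM), as did those of neutrophil, macrophage, and T and NK cell markers. None of these markers was at 0 in all libraries. In bulk tissue, fewer cells of a type and less RNA per cell cannot be told apart, and the part of these differences in the results for cell death genes was not tested.

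Of the 37 genes, 36 had enough counts to test, and none differed between the groups at an adjusted p under 0.05. The smallest adjusted p among them was 0.138, which was also the smallest of all 15167 genes tested (0% called; quasi-likelihood F-test of edgeR, p-values adjusted by the Benjamini-Hochberg method). Hrk, a BH3-only gene known mainly from neurons, was not tested: it had 0 counts in 3 libraries and 5 counts in treated replicate 2. Before adjustment, 7 of the 36 had a p under 0.05. Of these, Bax, Cycs, Bik and Fas were higher in the treated libraries (11.1% of the members, where 9.21% of all genes tested were called higher), and Bcl2l11, Bcl2 and Casp12 were lower (8.33% of the members, where 12% of all genes were called lower). Both shares lay near those of all genes. DESeq2, run as an alternative, called 929 of all genes and 1 of the members at an adjusted p under 0.05, Bcl2l11 (adjusted p = 0.00302).

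Most of the machinery differed little between the groups. The median log2 fold change of the 36 members was 0.03, against 0.02 for all genes tested, with 22 members above 0 and 14 below (26 and 10 under upper-quartile scaling, which raised the median of all genes by 0.106). Changes were under 1.5-fold in 32 of 36 members (88.9%), against 74.5% of all genes tested. The 2 sets were not matched for expression level, so whether the members differ from other genes in this was not tested. The treated pair stood wholly above the saline pair for 8 members (22.2%; 27.4% of all genes) and wholly below it for 7 members (19.4%; 27.8% of all genes), and the groups overlapped for the other 21. Under upper-quartile scaling 17 members (47.2%) stood above and 6 (16.7%) below, against 35.1% and 20.9% of all genes. In 24 of 36 members the saline pair, the treated pair or both lay further apart on the log2 CPM scale than the group means did. The share of all genes with such a spread was not computed, so whether the members differ from other genes here was not tested.

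**Figure D1:**
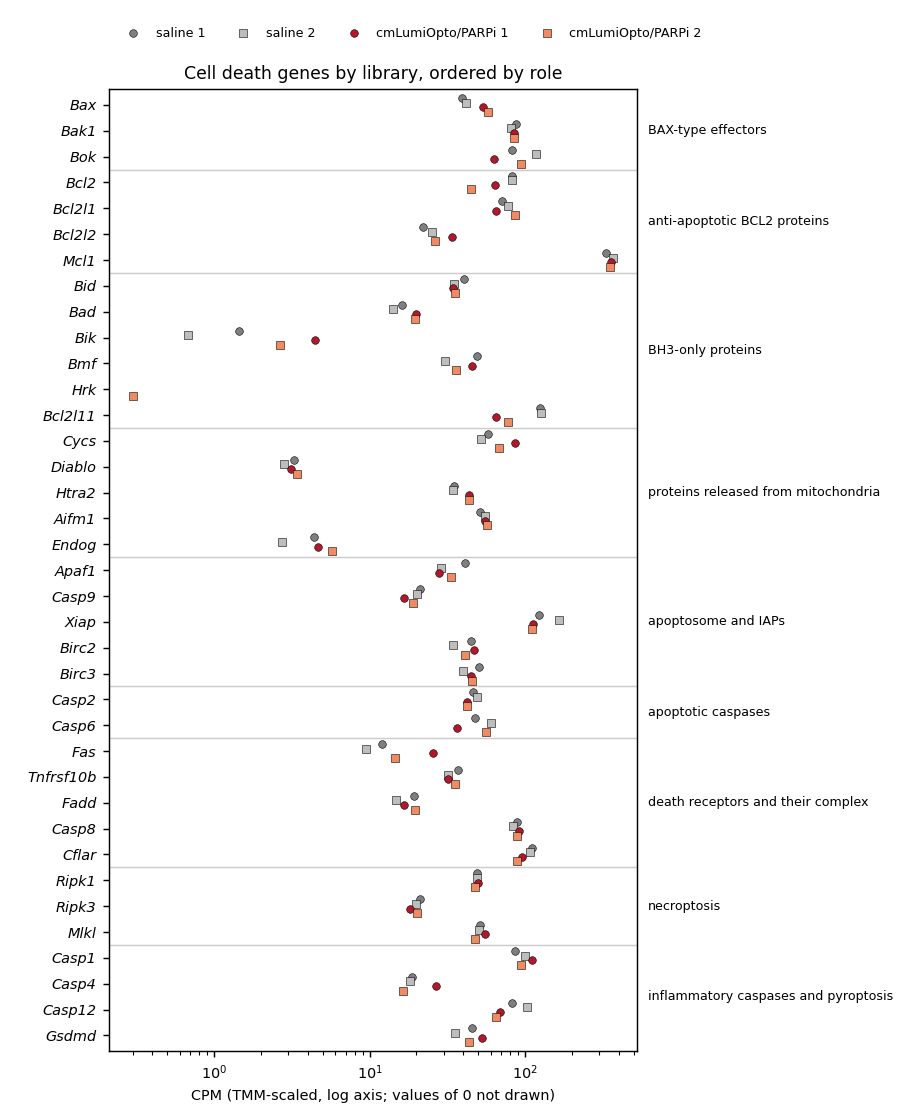
Level of each of the 37 genes in the 4 libraries (CPM on a log axis), ordered by role; circles are replicate 1 and squares replicate 2, in greys for saline and in red and orange for cmLumiOpto/PARPi, and values of 0 (Hrk) are not drawn. Mcl1 stood highest at 330 to 368 CPM, and most genes had tightly grouped points. Of the 36 tested genes, 8 had both treated points above both saline points, Bax, Bik and Fas among them (22.2%, against 27.4% of all genes). Another 7 had both below, Bcl2l11 and Bcl2 among them (19.4%, against 27.8% of all genes).

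Promoter sequences are shown for Bax and Fas, which were higher in the treated libraries before adjustment, and for Bcl2l11 and Casp12, which were lower, since they differ in base composition as well as in direction. Each window runs from 250 bases before to 50 bases after the RefSeq start (GRCm38.p6), 5′ to 3′ along the gene's strand, at chr7:45466849-45467148 (minus strand) for Bax, chr19:34290409-34290708 (plus) for Fas, chr2:128125788-128126087 (plus) for Bcl2l11 and chr9:5345226-5345525 (plus) for Casp12. Capitals mark GGGCGG on either strand (a GC box, read as CCGCCC where it lies on the other strand) and CACGTG (an E-box).
Bax: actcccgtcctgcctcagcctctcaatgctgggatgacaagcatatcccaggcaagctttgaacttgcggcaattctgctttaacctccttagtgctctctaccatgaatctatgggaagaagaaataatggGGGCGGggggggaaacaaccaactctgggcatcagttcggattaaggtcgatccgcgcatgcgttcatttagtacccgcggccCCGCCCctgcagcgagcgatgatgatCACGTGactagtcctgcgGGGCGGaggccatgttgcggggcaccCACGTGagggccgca
Fas: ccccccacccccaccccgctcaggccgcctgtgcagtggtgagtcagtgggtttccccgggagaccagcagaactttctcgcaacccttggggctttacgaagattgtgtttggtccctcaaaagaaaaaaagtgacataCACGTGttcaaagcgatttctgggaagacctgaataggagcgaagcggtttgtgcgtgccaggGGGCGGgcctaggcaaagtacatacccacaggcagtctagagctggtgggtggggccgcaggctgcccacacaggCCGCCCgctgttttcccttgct
Bcl2l11: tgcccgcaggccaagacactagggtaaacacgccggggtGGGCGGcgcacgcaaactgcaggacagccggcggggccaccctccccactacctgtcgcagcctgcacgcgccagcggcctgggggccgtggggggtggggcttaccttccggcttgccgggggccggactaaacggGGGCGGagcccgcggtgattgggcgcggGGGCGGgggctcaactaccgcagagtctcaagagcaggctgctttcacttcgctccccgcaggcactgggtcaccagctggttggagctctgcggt
Casp12: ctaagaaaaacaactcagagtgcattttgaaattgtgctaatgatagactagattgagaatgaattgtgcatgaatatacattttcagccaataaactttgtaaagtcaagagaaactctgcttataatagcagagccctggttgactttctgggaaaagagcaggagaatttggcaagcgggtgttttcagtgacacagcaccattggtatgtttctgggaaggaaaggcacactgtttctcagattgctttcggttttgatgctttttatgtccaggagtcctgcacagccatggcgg
The Bax window held 3 GC boxes and 2 E-boxes, that of Fas 2 and 1, and that of Bcl2l11 3 and 0, while the Casp12 window held neither and only 3 CpG dinucleotides. Of the 37 genes, 33 had a window. Where a gene had several, the one nearest its annotated start was used, whereas the values for all windows count every window. The members and all windows are thus not matched, and the difference between them was not tested. GGGCGG lay in 22 of these 33 (66.7%), against 35.7% of all 32851 windows, and CACGTG in 4 (Bax, Fas, Ripk3 and Casp1; 12.1%), against 7.15% of all windows. The members had a median of 19 CpG per window and all windows a median of 7. The inflammatory caspases stood at the low end, with 3 CpG for Casp1, 5 for Casp4 and 3 for Casp12, as did Casp8 and Xiap with 5 each, and Apaf1 at the high end, with 46. A p53 decamer was found in 1 of the 33, Bax (8.36% of all windows), a kappaB site in Hrk, Aifm1 and Casp4 (8.46%), TATAAA in 1, Cflar (13.6%), the core of the interferon-stimulated response element in Cflar too (3.44%), and CCAAT in 9 of the 33 (27.3%, against 37.4%). Both strands were searched and no matches of different motifs overlapped. These are matches of letters, not sites shown to be bound.

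The BAX-type effectors, which open the outer mitochondrial membrane, did not move as a group. Bax (ENSMUSG00000003873, chromosome 7 from 45461697 to 45466898) had 39.2 and 41.4 CPM in saline and 53.6 and 57.6 CPM after treatment. The groups did not overlap, and the gap between the groups was wider than the gap within either. The log2 fold change was 0.46 (SE 0.14), or 1.38-fold, with an unadjusted p of 0.0171 and an adjusted p of 0.170. Bak1, which does the same work as Bax, had 87.7 and 81.8 CPM in saline against 84.5 and 85.1 CPM, a log2 fold change of 0.00 (SE 0.12) with overlapping groups. Bok, a less studied effector-like relative, ranged from 63.6 to 118 CPM, and replicate 2 was higher than replicate 1 in both groups (log2 fold change -0.34, SE 0.26). Exons of Bax and Bak1 share bases with other annotated genes (12.2% and 25.5% of their length).

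Among the guardians, Bcl2 alone had an unadjusted p under 0.05. Bcl2 (ENSMUSG00000057329, chromosome 1 from 106538178 to 106714274), the founding anti-apoptotic gene, had 83.0 and 82.04 CPM in saline and 64.5 and 44.8 CPM after treatment. The saline libraries were almost equal, and the treated libraries lay below them but apart from each other. The log2 fold change was -0.59 (SE 0.20), a level 1.51-fold higher in saline (unadjusted p = 0.0257, adjusted p = 0.189). Mcl1, the guardian with the shortest-lived protein, had by far the highest level per length of all 37 genes (103 CPM per kb, followed by Bok with 48.7 CPM per kb), and its log2 fold change was 0.02 (SE 0.14). Bcl2l1, which encodes BCL-XL, stood at 0.03 (SE 0.17) with overlapping groups. Bcl2l2, which encodes BCL-W, had 22.2 and 25.01 CPM in saline and 34.1 and 26.5 CPM after treatment (log2 fold change 0.36, SE 0.20, unadjusted p = 0.121).

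The balance of effectors to guardians was set out as the log2 ratio of the summed CPM per kb of Bax, Bak1 and Bok to that of Bcl2, Bcl2l1, Bcl2l2 and Mcl1. It was -0.25 and -0.16 in saline and -0.37 and -0.10 after treatment, so that the treated libraries lay on both sides of the saline ones. The difference of means was -0.03 (exact permutation test over the 4 libraries, two-sided, p = 1; the smallest p that 2 against 2 libraries allow is 0.333). The ratio of Bax to Bcl2 alone, chosen after its values were seen, was 1.46 and 1.55 in saline and 2.27 and 2.90 after treatment on the same log2 scale. Bax is a short gene and Bcl2 a long one. Their log2 fold changes were 0.18 and -0.28 after the length correction described below.

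**Figure D2:**
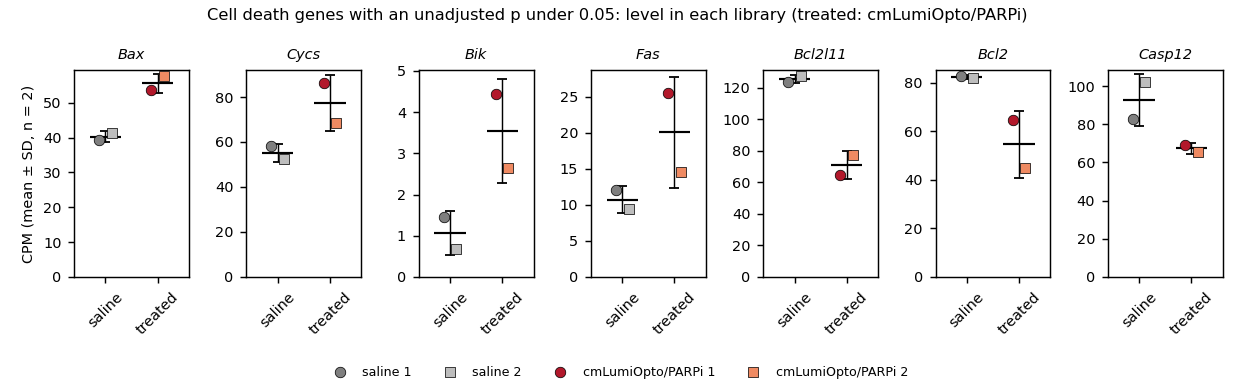
CPM in each library for the 7 genes with an unadjusted p under 0.05; horizontal bars are means and error bars SD (n = 2 libraries per group), and each vertical axis starts at 0. Bax and Bcl2l11 had groups far apart relative to their spread (39.2 and 41.4 against 53.6 and 57.6 CPM; 124 and 127 against 64.8 and 77.2 CPM), whereas the treated libraries differed widely for Bik and Fas.

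The BH3-only genes, the sensors that set the mitochondrial branch off, included the largest values in both directions. Bcl2l11 (ENSMUSG00000027381, chromosome 2 from 128126038 to 128162547), which encodes BIM, had 124 and 127 CPM in saline and 64.8 and 77.2 CPM after treatment. The saline libraries were almost equal and both treated libraries lay far below them. Its log2 fold change was -0.82 (SE 0.14), a level 1.77-fold higher in saline, with an unadjusted p of 0.00136 and an adjusted p of 0.138. Across 11 alternative fits it kept this direction and an unadjusted p under 0.05 in 11, while its adjusted p ranged from 3.71e-04 to 0.386 and was under 0.05 in 3. Bik (ENSMUSG00000016758, chromosome 15 from 83526862 to 83544634) pointed the other way, from a low level: 1.44 and 0.68 CPM in saline and 4.43 and 2.65 CPM after treatment. In counts these were 23 and 10 against 77 and 44, well above the limit of 3. Its log2 fold change was 1.72 (SE 0.56), or 3.30-fold (unadjusted p = 0.0226, adjusted p = 0.182).

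The other BH3-only genes gave smaller values. Bad, whose product is kept inactive by survival-factor kinases, had 16.2 and 14.2 CPM in saline and 20.0 and 19.6 CPM after treatment (log2 fold change 0.38, SE 0.20, unadjusted p = 0.103). Bid, which links caspase-8 to the mitochondrion, had a log2 fold change of -0.10 (SE 0.16), and Bmf one of 0.04 (SE 0.27), with a saline pair of 49.2 and 30.4 CPM that held both treated values between them. Summed per kb, the BH3-only genes had 43.4 and 37.4 CPM per kb in saline and 37.01 and 35.8 CPM per kb after treatment.

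All 5 genes for proteins released from mitochondria had log2 fold changes above 0, and 1 of them had an unadjusted p under 0.05; that of Diablo was below 0 after a correction for gene length (-0.13) and without saline replicate 2 (-0.01). Cycs (ENSMUSG00000063694, chromosome 6 from 50562563 to 50566538), which encodes cytochrome c, a respiratory chain carrier as well as the trigger of the apoptosome, had 58.0 and 52.4 CPM in saline and 86.3 and 68.5 CPM after treatment. The treated libraries were higher, and further apart from each other than the saline ones. The log2 fold change was 0.49 (SE 0.17), or 1.40-fold (unadjusted p = 0.0273, adjusted p = 0.193), and 2 pseudogenes named after Cycs in the annotation could share its reads. Htra2, a protease of the intermembrane space that cleaves IAPs, had 35.0 and 34.2 CPM in saline and 43.4 and 43.7 CPM after treatment (log2 fold change 0.33, SE 0.14, unadjusted p = 0.0592), although 43.7% of its exonic bases overlap other genes. Aifm1, an oxidoreductase that also serves the respiratory chain, differed least (log2 fold change 0.07, SE 0.14). Endog and Diablo were low, at 2.73 to 5.72 CPM and 2.79 to 3.43 CPM, with standard errors of 0.39 and 0.37, and 35.7% and 40.9% of their exonic bases overlap other genes.

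Downstream of the mitochondrion, no member reached an unadjusted p under 0.05. Apaf1, the scaffold of the apoptosome, ranged from 28.1 to 41.0 CPM with overlapping groups (log2 fold change -0.19, SE 0.22). Casp9, the caspase that it activates, had 21.1 and 20.3 CPM in saline and 16.6 and 19.1 CPM after treatment (log2 fold change -0.21, SE 0.19). Xiap, the IAP that inhibits caspases directly, had 122 and 166 CPM in saline and 113 and 111 CPM after treatment (log2 fold change -0.37, SE 0.18, unadjusted p = 0.0866). The treated libraries were almost equal and lay below both saline libraries, which differed more from each other than saline replicate 1 did from the treated ones. Birc2 and Birc3, which encode the cIAP ubiquitin ligases of TNF receptor signaling and lie 11.6 kb apart on chromosome 9, had log2 fold changes of 0.15 (SE 0.18) and 0.00 (SE 0.17). The caspases Casp2 and Casp6 stood at -0.16 (SE 0.14) and -0.22 (SE 0.25).

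In the receptor branch, Fas had an unadjusted p under 0.05 and the other 4 genes did not; the difference between Fas and these genes was not tested. Fas (ENSMUSG00000024778, chromosome 19 from 34290666 to 34327772), the receptor through which cytotoxic lymphocytes can kill, had 12.04 and 9.40 CPM in saline and 25.5 and 14.6 CPM after treatment. Both treated libraries were higher, but treated replicate 2 lay closer to the saline libraries than to treated replicate 1. The log2 fold change was 0.90 (SE 0.33), or 1.87-fold (unadjusted p = 0.0337, adjusted p = 0.205). The value for Fas was 0.45 without treated replicate 1 (unadjusted p = 0.212) and 1.23 without treated replicate 2. Casp8, the initiator caspase of this branch, had 88.9 and 83.5 CPM in saline and 91.8 and 88.5 CPM after treatment, a log2 fold change of 0.07 (SE 0.12). Fadd, the adaptor, and Tnfrsf10b, the mouse TRAIL receptor, had values of 0.08 (SE 0.23) and -0.03 (SE 0.17). Cflar, which restrains caspase-8 and lies 36.5 kb from Casp8 on chromosome 1, had 110 and 108 CPM in saline and 95.7 and 88.7 CPM after treatment (log2 fold change -0.24, SE 0.13, unadjusted p = 0.104).

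None of the 3 necroptosis genes differed by more than 0.10 on the log2 scale. Ripk1, the kinase shared with TNF receptor signaling, had 48.9 and 49.4 CPM in saline and 49.97 and 47.3 CPM after treatment (log2 fold change -0.01, SE 0.14). Ripk3, its partner, had 21.01 and 19.9 CPM against 18.2 and 20.1 CPM (-0.10, SE 0.18), and Mlkl, the executioner that disrupts the plasma membrane, 51.05 and 50.6 CPM against 55.6 and 47.8 CPM (0.03, SE 0.15). The groups overlapped for each of the 3 genes, and none had an adjusted p below 0.790. After the correction for gene length described below the values were 0.23 for Ripk1, -0.33 for Ripk3 and -0.15 for Mlkl.

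Among the inflammatory caspases, which lie in a row on chromosome 9 with 1.6 kb between Casp1 and Casp4 and 8.6 kb between Casp4 and Casp12, only Casp12 had an unadjusted p under 0.05. Casp12 (ENSMUSG00000025887, chromosome 9 from 5345430 to 5373032), a caspase of this cluster studied in endoplasmic reticulum stress, had 82.9 and 102 CPM in saline and 69.3 and 65.5 CPM after treatment. The treated libraries lay below both saline libraries, with a log2 fold change of -0.46 (SE 0.15), a level 1.37-fold higher in saline (unadjusted p = 0.0252, adjusted p = 0.188). Its neighbours had log2 fold changes above 0: 0.14 (SE 0.15) for Casp1, which matures IL-1beta, and 0.22 (SE 0.27) for Casp4, the sensor of intracellular lipopolysaccharide, whose treated replicate 1 had 26.8 CPM against 16.3 to 18.8 CPM in the others. Gsdmd, the pore former they cleave, had 45.7 and 35.6 CPM in saline and 52.6 and 43.4 CPM after treatment (0.24, SE 0.19), with overlapping groups.

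**Figure D3:**
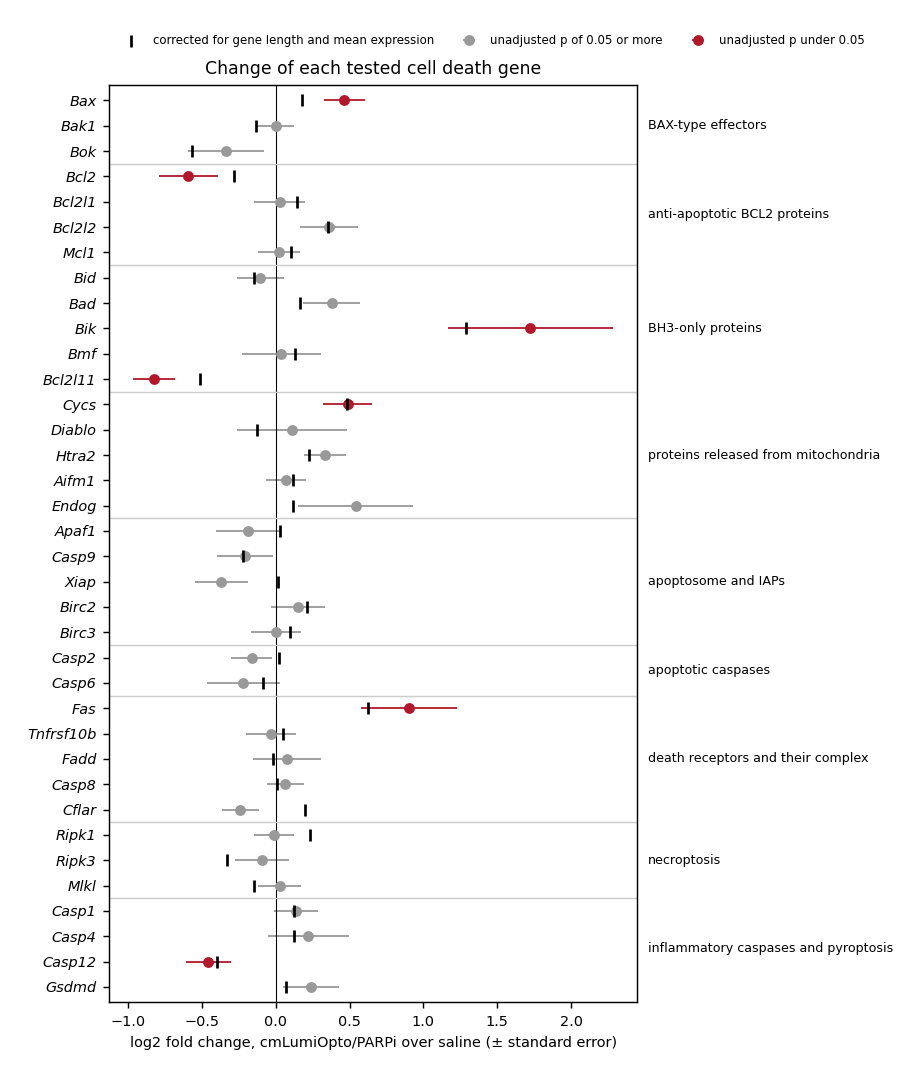
Log2 fold change of each of the 36 tested genes (cmLumiOpto/PARPi over saline; bars are standard errors from edgeR), in red where the unadjusted p was under 0.05, with black ticks for the value corrected for gene length and mean expression. Bik and Fas lie farthest above 0 and Bcl2l11 farthest below, the necroptosis genes lie close to it, and the ticks for Bax and Bcl2 sit closer to 0 than the points.

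Gene length moved with these differences. Across the 36 members the log2 fold change was lower in longer genes (Spearman's rho = -0.61; all points come from the same 4 libraries and are not independent), and across all 15167 genes tested rho was -0.37. Bax (1576 bases), Bik (1591) and Fas (2062) are short, and Bcl2 (9157) and Bcl2l11 (8029) are long. After a loess correction for gene length and mean expression, which gives values but no test, the log2 fold changes were 1.29 for Bik, 0.62 for Fas, 0.48 for Cycs and 0.18 for Bax, and -0.51 for Bcl2l11, -0.40 for Casp12 and -0.28 for Bcl2. All 7 kept their sign and the values for Bax and Bcl2 fell to under 0.3 in size. Bok, not among the 7, had -0.57 after this correction, the lowest of the members. Xiap and Cflar, both long, changed sign, to 0.02 and 0.20, as did Casp2, Apaf1, Ripk1, Tnfrsf10b, Bak1, Diablo, Mlkl and Fadd.

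**Figure D4:**
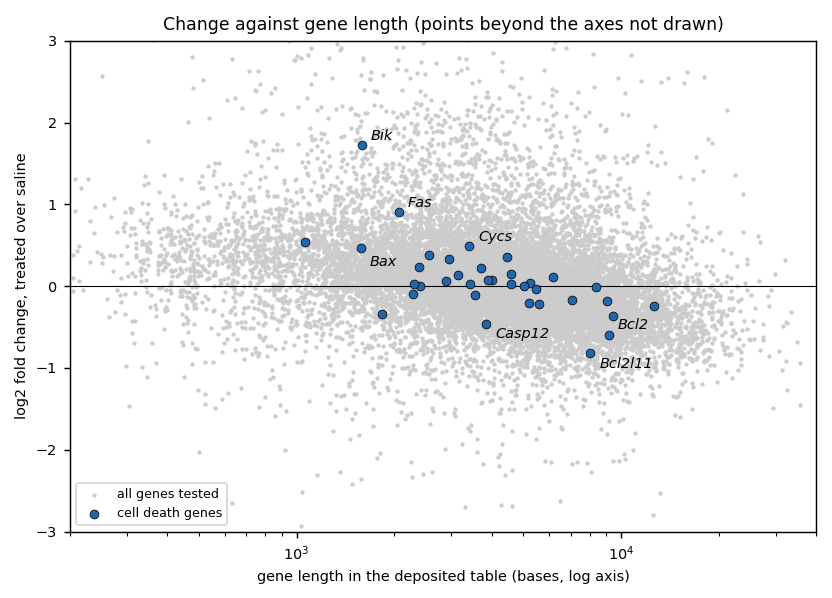
Log2 fold change against gene length (log axis) for all genes tested (grey) and the cell death genes (blue), with the 7 genes of an unadjusted p under 0.05 named; points beyond the axes are not drawn. Short genes such as Bik and Fas lie above 0 and long genes such as Bcl2 and Bcl2l11 below it, the direction in which the grey cloud slopes. Of the named genes, Bik, Fas and Bcl2l11 had values of 1.29, 0.62 and -0.51 after the length correction, and Cycs and Casp12 had 0.48 and -0.40. Bok, which is not named, had -0.57.

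Leaving out single libraries changed the size of several of these differences. For Bik the log2 fold change was 2.35 without saline replicate 1 and 1.27 without saline replicate 2. Whichever library was left out, it was 0.39 to 0.51 for Bax and -0.98 to -0.70 for Bcl2l11. The log2 fold change of Cycs was 0.31 without treated replicate 1, and that of Bcl2 was -0.38 without treated replicate 2. Saline replicate 2 had the lowest and treated replicate 1 the highest sum of alveolar type 2, club and ciliated markers, and 4 members (Bad, Bik, Cycs and Fas; 11.1%) followed the same order of libraries, as did 10.9% of all genes tested.

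Beyond these 37 genes, 73 further genes of the same pathways were listed, of which 61 could be tested. At an unadjusted p under 0.05, 9 of the 61 were higher (14.8%) and 3 were lower (4.92%), against 9.21% and 12% of all genes tested, and none had an adjusted p under 0.05 by edgeR (3 by DESeq2, and 7 and 6 by edgeR with no filter on low counts and with the replicate block). The log2 fold change was above 0 for 34 and below 0 for 27, with a median of 0.16. Bbc3 and Pmaip1, the p53-induced BH3-only genes that encode PUMA and NOXA, stood at 0.44 (SE 0.25) and -0.23 (SE 0.29), neither with an unadjusted p under 0.05.

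The smallest unadjusted p-values among the further genes that were higher belonged to the BCL2 family. Bcl2a1d, a guardian gene of blood cells, had 20.6 and 16.9 CPM in saline and 41.1 and 30.7 CPM after treatment (log2 fold change 0.94, SE 0.22, unadjusted p = 0.00553, adjusted p = 0.138). Its near-identical copies Bcl2a1b and Bcl2a1a, whose reads the counting could have split among them, had 1.10 (SE 0.29) and 0.83 (SE 0.23), and the groups did not overlap for either. After the correction for length the values were 0.54 for Bcl2a1d, 0.67 for Bcl2a1b and 0.42 for Bcl2a1a. Bcl2l14, an apoptosis facilitator, was low, at 1.57 and 1.16 CPM in saline and 6.10 and 3.79 CPM after treatment (log2 fold change 1.85, SE 0.45, unadjusted p = 0.00704). Among those with lower values, Birc6, a giant IAP of the ubiquitin system, had 128 and 154 CPM in saline and 93.3 and 86.9 CPM after treatment (log2 fold change -0.64, SE 0.15, unadjusted p = 0.00543), a value that was -0.06 after the correction for length. Txnip, which binds thioredoxin and NLRP3, had -0.45 (SE 0.14), Tnfaip3, the A20 brake on NF-kappaB, -0.40 (SE 0.15; -0.18 after that correction), and Tnfrsf1a, the main TNF receptor gene, -0.30 (SE 0.13, unadjusted p = 0.0576).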

How the data were processed

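Bulk RNA sequencing was carried out on 4 libraries of lung tissue with 4T1 metastases, 2 from saline and 2 from cmLumiOpto/PARPi mice. The authors mapped the reads with HISAT2 (version not given in the sources used here) and deposited raw read counts per gene, without normalization. The study names GRCm38, whereas the submitters' processing notes name mm39, and 2.83% of the 52073 table genes found in GENCODE M21 (GRCm38) had the same position there, so positions are those of GENCODE M21 and the table's were not used. Promoter windows are RefSeq's (GRCm38.p6). The counting tool and strandedness are not given in the sources used here, so overlapping and antisense genes cannot be told apart.

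Counts were tested with edgeR 4.0.16 (filterByExpr with a minimum count of 10, TMM, then glmQLFit and glmQLFTest at default settings; adjusted by Benjamini-Hochberg over 15167 genes, threshold 0.05). SE is the log2 fold change divided by the square root of F. CPM per kb uses the length in the table. Totals of 15263375 to 16755228 counts set the precision. Chi-square divided by its degrees of freedom was 17.5 between the saline libraries and 29.9 between the treated ones, so neither pair is 1 library deposited again, and nothing says whether they are separate animals, so p-values measure only the spread between these libraries. Groups and replicate numbers come from the sample titles. All 37 members were named, as were 4 further pathway genes in each direction by smallest unadjusted p and Bbc3 and Pmaip1; other genes that the rule names are not reported here. Members, lists and rules were chosen with earlier results of these data known. The fit was tested on simulated data. Alternatives were DESeq2 1.42.0, other scalings and filters, edgeR without its legacy option, the replicate block, a loess correction (span 0.5) and leaving out each library.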

Additional observations from a re-analysis of the deposited data

How the results depend on the processing

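With 2 libraries per group, the counts of calls depended on the fit. The direction of the 7 genes with an unadjusted p under 0.05 was the same in all 11 alternative fits and after the length correction. These fits reused the same 4 libraries or all but 1 of them, so this is no independent support. Members with a larger p, Casp8 and Casp1 among them, also kept their direction throughout, whereas other members changed sign, as given below. An adjusted p under 0.05 was reached by 929 genes with DESeq2, 2000 with no filter on low counts and 1822 with the replicate block, against 0 with the settings reported and with RLE or upper-quartile scaling, the filter on a mean of 10 counts or no legacy option. Among the members these were 1 with DESeq2 (Bcl2l11), 4 with no filter and 4 with the replicate block (Bcl2, Bik, Bcl2l11 and Fas in both). Same-numbered saline and treated libraries come from different treatment groups and no label links them, so the block pairs libraries by number only. Their deviations from the group means correlated with rho = 0.298 across genes, and with the block 5 members and 7 pathway genes were lower at an unadjusted p under 0.05, where 15.9% of all genes were (12% without it). With no filter 5 pathway genes were lower, where 8.86% of all genes were.

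Upper-quartile scaling raised the median of all genes by 0.106 on the log2 scale. Under it 1 member and 1 pathway gene were lower at an unadjusted p under 0.05 (7.82% of all genes), 17 members stood above saline without overlap (47.2%, and 35.1% of all genes), 26 members were above 0 and 10 below, and the members' median was 0.132; the length correction gave a median of 0.081. Genes near 0 changed sign: Bid to 7e-04, Tnfrsf10b to 0.0713, Ripk1 to 0.0907 and Ripk3 to 0.0095 with upper-quartile scaling, Bak1 to -0.0089 and Birc3 to -0.0075 with DESeq2, and Bak1 to -0.0094 and Birc3 to -0.0081 with no filter.

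Leaving out each library in turn, with the lone library of a group assumed to vary like the other group, gave 0 to 31 genes past the adjusted threshold (31 without saline replicate 1, 9 without saline replicate 2, 2 without treated replicate 1) and 0 members. Members higher at an unadjusted p under 0.05 numbered 0 to 3 (0 without saline replicate 2, 1 without treated replicate 1), where 4.12% to 9.82% of all genes were, and pathway genes 4 to 11 (4 without saline replicate 2). Members without overlap numbered 11 to 17 above (30.6% to 47.2%; 36.8% to 42.3% of all genes) and 10 to 14 below (27.8% to 38.9%; 36.9% to 39.4% of all genes), counts that 3 libraries reach more easily than 4. The members' median was -0.0303 to 0.0524. Log2 fold changes that changed sign ranged from -0.0645 to 0.037 for Bak1, -0.2043 to 0.2094 for Bcl2l1, -0.067 to 0.0897 for Mcl1, -0.2849 to 0.41 for Bmf, -0.0123 to 0.2112 for Diablo, -0.4328 to 0.0769 for Apaf1, -0.038 to 0.3339 for Birc2, -0.1801 to 0.1744 for Birc3, -0.5797 to 0.0538 for Casp6, -0.1555 to 0.0677 for Tnfrsf10b, -0.1166 to 0.2677 for Fadd, -0.0557 to 0.003 for Ripk1, -0.0878 to 0.1088 for Mlkl and -0.186 to 0.5114 for Casp4. The causes were not tested, and the library left out cannot be told apart from the smaller number of libraries. Depth limits Bik, Endog, Diablo and Hrk, whose counts were 0 to 95 per library.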
